A study of Homo sapiens with 6 samples.

Results

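Annexins are a family of cytosolic proteins that bind membranes carrying acidic phospholipids when calcium rises. Each has a conserved core of repeated calcium-binding domains and an N-terminal tail of its own, which sets its partners, often S100 or other EF-hand proteins. In keratinocytes they are known for membrane repair, vesicle traffic, organisation of actin at the membrane and, for ANXA1, restraint of inflammation. The genes described here were 10 listed annexins, ANXA1 to ANXA9 and ANXA11, taken by symbol from a deposited table of 12829 genes. The table analysed here held 9 of the 10, without ANXA6. All 9 passed the filter on low values, for which the 6 libraries had to average 0.5 FPKM or more.

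The libraries came from HaCaT, an immortal, aneuploid human keratinocyte line grown in DMEM with fetal bovine serum. The 3 control libraries are labelled as normal control with the genotype WT, and the 3 knockdown libraries as shIQGAP2 with the genotype IQGAP2 knockdown. IQGAP2 is a scaffold protein that binds calmodulin and actin. The sample titles call the libraries of each group biological replicates, without saying whether these were grown separately. Nor do the labels say whether control cells carried a hairpin or how many hairpins were used. The p-values therefore rest on the scatter among 6 libraries, and that scatter may be no more than technical. FPKM means fragments per kilobase of gene and per 1000000 fragments. All log2 changes are knockdown minus control of log2(FPKM + 1), with adjusted p-values from limma over all genes tested.

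The targeted gene was low throughout. IQGAP2 was at 0.200, 0.198 and 0.190 FPKM in the control libraries and at 0.0196, 0.0328 and 0.0182 FPKM in the knockdown libraries, from 21 to 24 and from 2 to 4 reads. The groups did not overlap (log2 change -0.22, SE 0.072, limma adjusted p = 0.0217, exact two-sided permutation p = 0.1, the smallest that 3 libraries against 3 allow). The mean FPKM of IQGAP2 in knockdown libraries was 0.120 of that in control libraries. At such low levels the log2 change is set by the pseudocount: it was -0.41 with a pseudocount of 0.5, -1.26 with 0.1 and -2.86 by limma-voom on recovered reads. The limma call was lost without any one of the control libraries or without knockdown replicate 3 (adjusted p 0.0519 to 0.0556, against 4.7e-05 to 0.0556 over all alternatives). Whole reads recovered from the FPKM steps summed to 12901037 to 15360759 per library. Keratinocyte markers (6 of 6 in the table) summed to 5114 to 5200 FPKM in control and 5007 to 5624 FPKM in knockdown libraries. Of fibroblast, melanocyte and endothelial markers, 3 of 6, 2 of 6 and 2 of 5 were in the table, with summed levels of 3.46 to 3.79, 1.20 to 1.28 and 0.269 to 0.401 FPKM in control libraries. In knockdown libraries these sums were 1.56 to 1.91, 0.855 to 1.04 and 0.424 to 0.484 FPKM, and none of 6 immune markers was in the table. Knockdown replicate 2 was unlike knockdown replicates 1 and 3: a chi-square test on reads, divided by its degrees of freedom, gave 11.3 and 10.5 for those pairs and 2.10 to 2.49 for the remaining pairs within a group.

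Sequence matters for 1 member before any value is read. ANXA8 and its copy ANXA8L1, both on chromosome 10 of GRCh38, have coding sequences of 981 bases that differ at 5 positions (99.5% identity), in GENCODE v29. The stretch from base 499 to base 558 of the coding sequence is shown because it holds 2 of these 5 differences, in capitals.
ANXA8: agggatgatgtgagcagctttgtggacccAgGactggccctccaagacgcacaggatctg
ANXA8L1: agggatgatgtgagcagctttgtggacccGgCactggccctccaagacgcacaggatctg
Coding reads that cover none of the 5 differences would match both genes, while reads over the capitals shown could tell them apart. How reads were shared between the genes is not given in the sources used here, so the level of each is uncertain. The other 54 pairs among the 11 annexin genes compared were 43.3% to 64.2% identical over their aligned coding sequences, so ANXA8 is the one member with a near-identical annexin gene among those compared.

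Start regions differed between members. RefSeq (GRCh38.p14) gave windows of 300 bases around the start for 8 of the 9 members. The motif TATAAA, the TATA box that places the start of transcription, was found on either strand in those of ANXA1, ANXA2 and 1 of 3 starts of ANXA11, and in 11.5% of all 35116 windows. ANXA10, an annexin outside the 10 listed, had it too. The 30 bases around each match are shown because they are the shared letters of otherwise unlike start regions, with the motif in capitals and each read on the strand of its gene.
ANXA1 (chr9:73151822-73151851, plus strand): cctttaaaatccTATAAAatcagaagccca
ANXA2 (chr15:60398000-60398029, minus strand): ggatgtggcgggTATAAAagccccacccag
ANXA10 (chr4:168092496-168092525, plus strand): ctgataactaagTATAAAtacagtatctca
ANXA11 (chr10:80205852-80205881, minus strand): accgagtgttgcTATAAAggaaatgcgttt
The motif began 31 bases before the RefSeq start in both ANXA1 and ANXA2, 29 before it in ANXA10 and 61 before it in ANXA11. Gene bounds given below are those of GENCODE v29, and the matches of ANXA1 and ANXA2 lie inside them. The distances therefore hold for the RefSeq starts only, and which starts these cells use was not tested. GC content of the window was 37.7% for ANXA1, 32.7% for ANXA10 and 76.0% for ANXA2, against a median of 58.7% over all windows. The AP-1 motif TGAGTCA, found in 4.9% of all windows, was in that of ANXA2 only among the members matched. The GC box GGGCGG, found in 45.0% of windows, was in at least 1 window of ANXA2, ANXA4, ANXA5, ANXA7 and ANXA11, and the E-box CACGTG, found in 7.3%, in 1 of 2 windows of ANXA4. A match describes letters in these windows. Among members with TATAAA, ANXA1 rose, ANXA11 (1 of 3 starts) fell and ANXA2 did not pass the test, as described next. A link between a motif and these changes was not tested.

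Of the 9 annexins, 2 were higher in the knockdown (ANXA1 and ANXA3), 4 were lower (ANXA4, ANXA5, ANXA8 and ANXA11) and 3 did not pass the test (ANXA2, ANXA7 and ANXA9). Over all 11214 genes tested 57.4% were called, 29.5% higher and 27.8% lower, so 6 called of 9 is near the background. The groups did not overlap for 6 of the 9, against 65.1% of all genes tested. The median change of the 9 was -0.03, beside 0.01 over all genes tested. Changes were modest: the largest was the rise of ANXA3, by 1.59-fold in mean FPKM, and the largest fall was to 0.737 of the control level, for ANXA8. FPKM of all genes summed to less in knockdown libraries (234624 to 248082) than in control libraries (271372 to 274709), so the scale matters. When every library was rescaled to a common sum, the median of all genes moved by 0.13, 4 annexins were called higher (ANXA2 and ANXA7 joining) and 2 lower (ANXA4 and ANXA5 leaving), over a background of 59.8% called, 43.4% higher and 16.4% lower. With the trend over gene length removed 2 were higher and 3 lower (56.6% of all genes called), and without knockdown replicate 2 the calls were 2 higher and 4 lower (57.6% of all genes called).

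**Figure D1:**
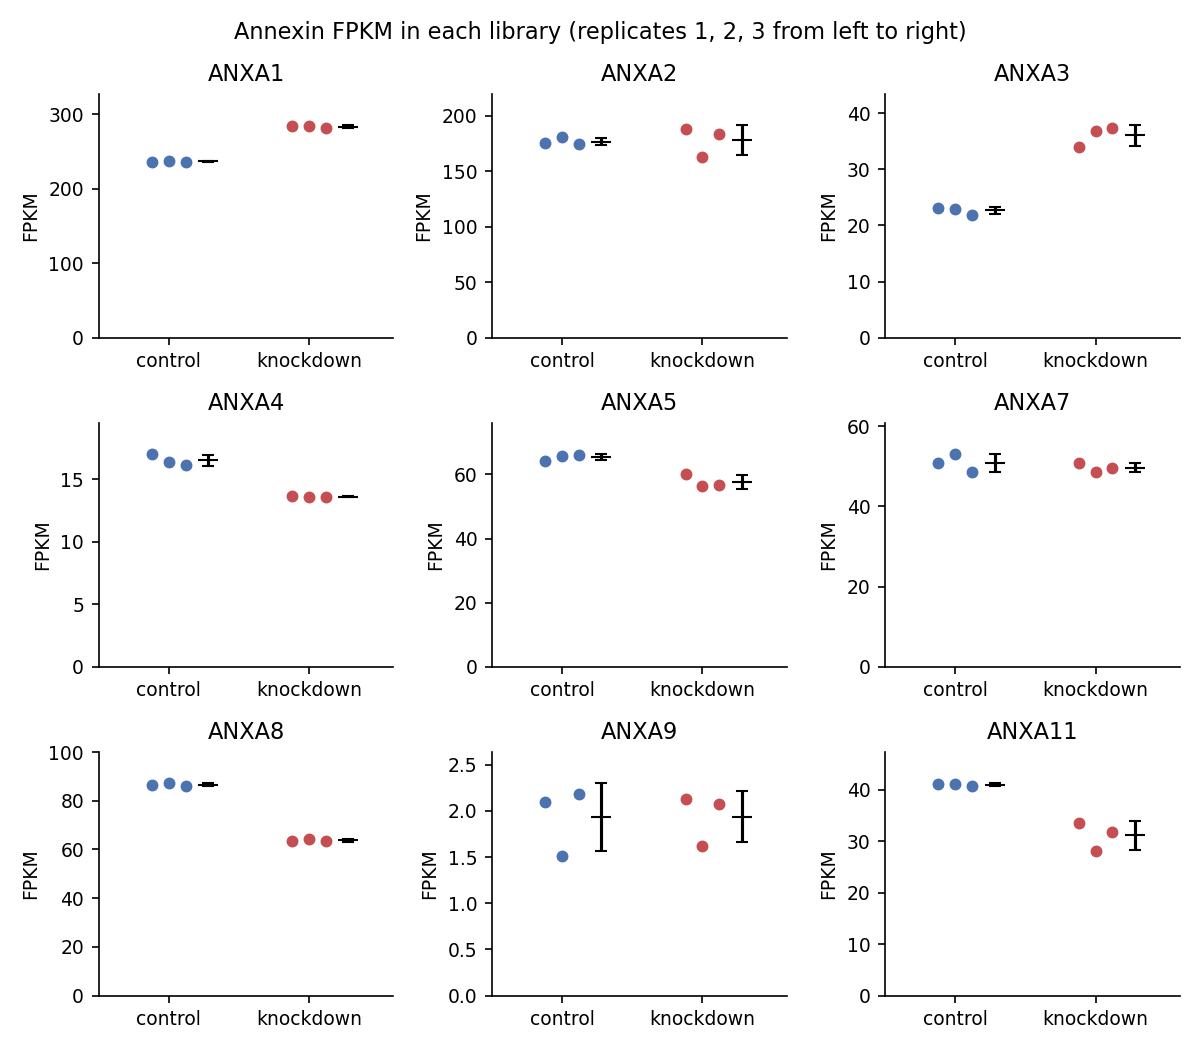
FPKM of the 9 annexins in each library, 1 panel per gene with its own linear axis from 0; points are libraries, and the black mark beside them is the mean ± SD of the 3 libraries. The groups are separate for ANXA1, ANXA3, ANXA4, ANXA5, ANXA8 and ANXA11 and overlap for ANXA2, ANXA7 and ANXA9.

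ANXA1 (ENSG00000135046, chromosome 9, 73151757 to 73170393 of GRCh38, plus strand) is a glucocorticoid-regulated inhibitor of cytosolic phospholipase A2, a ligand of formyl peptide receptors and a substrate of the EGF receptor. Control replicates 1 to 3 were at 236, 237 and 236 FPKM, and knockdown replicates 1 to 3 at 284, 284 and 281 FPKM. Every knockdown library lay above every control library, with SDs of 0.760 and 1.73 FPKM, so the rise was far larger than the spread. The rise was 19.7% in mean FPKM (log2 change 0.26, SE 0.043, limma adjusted p = 5.93e-04) and was called in all 15 alternative settings, with log2 changes of 0.26 to 0.44. ANXA1 was the annexin with the highest FPKM and ranked 108 of 12829 genes by mean level.

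ANXA3 (ENSG00000138772, chromosome 4, 78551519 to 78610451, plus strand) is known from the granule membranes of neutrophils and from many epithelia. It was at 23.1, 23.0 and 21.9 FPKM in control and 33.9, 36.7 and 37.3 FPKM in knockdown libraries. The lowest knockdown library was clearly above the highest control library, with SDs of 0.683 and 1.81 FPKM. The log2 change of 0.64 (SE 0.052, limma adjusted p = 7.00e-06) ranged from 0.62 to 0.81 over the 15 alternatives and was called in each.

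ANXA8 (ENSG00000265190, chromosome 10, 47460162 to 47484158, minus strand) was first described as an anticoagulant protein and is found on late endosomes and in stratified epithelia. It was at 86.6, 87.1 and 86.0 FPKM in control and 63.4, 64.5 and 63.6 FPKM in knockdown libraries. Both groups were tight (SD 0.581 and 0.576 FPKM) and well apart (log2 change -0.43, SE 0.040, limma adjusted p = 1.62e-05). Its copy ANXA8L1 was at 91.9, 90.6 and 91.6 FPKM in control and 71.2, 65.5 and 69.6 FPKM in knockdown libraries and fell too (log2 change -0.41, SE 0.046, adjusted p = 5.63e-05). The ratio of ANXA8L1 to ANXA8 was 1.06 ± 0.0139 in control and 1.08 ± 0.0555 in knockdown libraries (SD, n = 3), and the groups overlapped. Given the near-identical coding sequences described above, the pair is read together here. Sequence outside the coding part, which also collects reads, was not compared. ANXA8 was called lower in all 15 alternatives.

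ANXA11 (ENSG00000122359, chromosome 10, 80150889 to 80205572, minus strand) has a long N-terminal tail that binds PDCD6 (ALG-2) and S100A6, and it is known to tether RNA granules to lysosomes. It was at 41.2, 41.1 and 40.8 FPKM in control and 33.5, 28.1 and 31.8 FPKM in knockdown libraries. Control values were nearly equal, and among the knockdown libraries replicate 2 was the lowest. The fall (log2 change -0.39, SE 0.062, limma adjusted p = 4.34e-04) was -0.32 without knockdown replicate 2 (adjusted p = 6.73e-05) and was called in all 15 alternatives.

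ANXA4 (ENSG00000196975, chromosome 2, 69644425 to 69827100, plus strand) is an annexin of secretory and absorptive epithelia that aggregates vesicles. It was at 17.0, 16.4 and 16.2 FPKM in control and 13.7, 13.6 and 13.6 FPKM in knockdown libraries. The groups were separate, and the 3 knockdown libraries were almost the same (SD 0.0430 FPKM). The log2 change was -0.26 (SE 0.048, limma adjusted p = 0.00110). With libraries rescaled to a common sum it was -0.10 and the call was lost (adjusted p = 0.129, against 8.24e-05 to 0.129 over all alternatives).

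ANXA5 (ENSG00000164111, chromosome 4, 121667955 to 121697113, minus strand) binds phosphatidylserine, forms lattices at damaged membranes and serves as the usual probe for dying cells. It was at 64.3, 65.6 and 66.1 FPKM in control and 60.3, 56.2 and 56.6 FPKM in knockdown libraries. The groups did not overlap, although the gap between them was small, and the log2 change was -0.18 (SE 0.045, limma adjusted p = 0.00709). This call was lost under a common sum (-0.01, adjusted p = 0.821) and when the trend over gene length was removed (-0.07, adjusted p = 0.181), against 0.00441 to 0.821 over all alternatives.

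ANXA2 (ENSG00000182718, chromosome 15, 60347134 to 60402883, minus strand) forms a tetramer with S100A10 that binds plasminogen and its activator at the cell surface. It was at 175, 180 and 174 FPKM in control and 188, 162 and 183 FPKM in knockdown libraries. Knockdown replicate 2 was the lowest of the 6 libraries and knockdown replicate 1 the highest, so the groups overlapped. The log2 change was 0.01 (95% interval -0.12 to 0.14, limma adjusted p = 0.932), and 0.07 without knockdown replicate 2 (adjusted p = 0.0585). Its direction depended on scale, with 0.17 under a common sum, where it was called (adjusted p = 0.00704), and -0.14 with the length trend removed (adjusted p = 0.112), so no direction is given. Processed pseudogenes of ANXA2 exist in the genome and reads shared with them may have been placed either way.

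ANXA7 (ENSG00000138279, chromosome 10, 73375101 to 73414076, minus strand), the vesicle-fusing protein once named synexin, was at 50.8, 53.0 and 48.7 FPKM in control and 50.9, 48.6 and 49.6 FPKM in knockdown libraries. The groups overlapped (log2 change -0.03, 95% interval -0.14 to 0.07, limma adjusted p = 0.593). Under a common sum the sign turned and the gene was called higher (0.13, adjusted p = 0.0325, against 0.0325 to 0.985 over all alternatives), so no direction is given here either. ANXA9 (ENSG00000143412, chromosome 1, 150982017 to 150995634, plus strand), a member whose core has lost residues needed for calcium binding, was at 2.10, 1.51 and 2.18 FPKM in control and 2.12, 1.62 and 2.07 FPKM in knockdown libraries. Replicate 2 was the lowest in each group and the groups overlapped. With 34 to 51 reads per library, the 95% interval of its log2 change ran from -0.23 to 0.25 (estimate 0.01, adjusted p = 0.958), so a moderate change in either direction was not detectable at this depth.

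**Figure D2:**
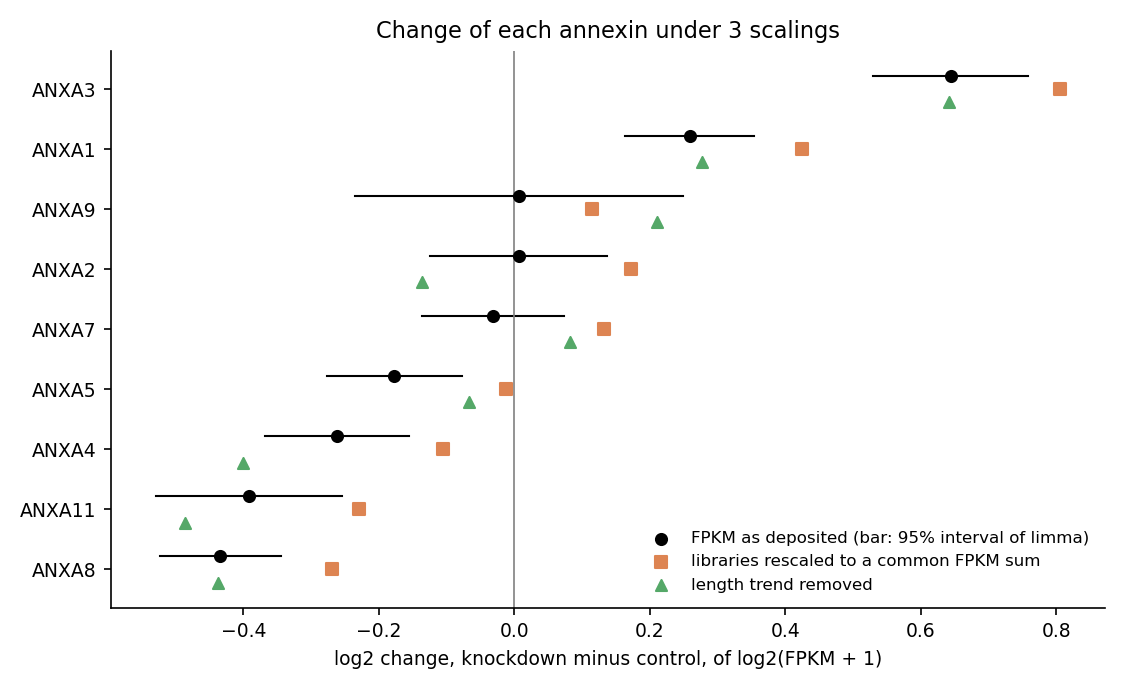
Log2 change of each annexin on the x axis, genes ordered by the change as deposited on the y axis; black circles with bars are values as deposited with the 95% interval of limma, orange squares are values after rescaling libraries to a common FPKM sum, and green triangles are values with the length trend removed. ANXA1 and ANXA3 stay right of 0 and ANXA8, ANXA11, ANXA4 and ANXA5 left of 0 under all 3, while ANXA2 and ANXA7 cross it.

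The removed trend is one of the whole table: the median log2 change rose from -0.19 in the shortest of 10 equal classes of genes to 0.17 in the longest, by the lengths that the FPKM values imply. A trend of this kind was also present within the knockdown group. There the median difference of replicate 2 from the mean of replicates 1 and 3 rose from -0.14 in the shortest class to 0.11 in the longest. A trend over length is thus not particular to the comparison of the groups. Of the 6 annexins called, 5 kept their calls with the trend removed, and ANXA5, in class 3, lost its call. ANXA4 and ANXA11, with implied lengths of 11060 and 8513 bases, lay in classes 9 and 8 and fell, while ANXA1 and ANXA3, of 4453 and 4895 bases, lay in class 5 and rose. ANXA8 lay in class 5 as well and fell. Of the members not called, ANXA9 lay in class 1, ANXA7 in class 2 and ANXA2 in class 10.

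The summed FPKM of the 9 annexins was 698 ± 6.81 in control and 715 ± 17.6 in knockdown libraries (SD, n = 3), and the groups overlapped (exact two-sided permutation p = 0.3). This sum depends on how libraries are scaled, and FPKM of all genes summed to less in knockdown libraries. It also leaves out ANXA8L1 and ANXA10, which were both lower in knockdown libraries. Within the 9, the mix changed. ANXA1 made up 33.9%, 33.6% and 34.1% of this sum in control libraries and 39.0%, 40.8% and 39.1% in knockdown libraries. ANXA3 went from 3.25% ± 0.0808 to 5.04% ± 0.342, and ANXA8 from 12.4% ± 0.0492 to 8.93% ± 0.303. The share of ANXA2 was 25.3% ± 0.231 in control and 24.9% ± 1.31 in knockdown libraries, with overlapping groups. Such shares compare genes within a library and do not depend on how libraries are scaled to each other. They do depend on the gene length behind each FPKM. On the scale of 1 principal transcript per gene, described next, ANXA2 stood above ANXA1 in control libraries (1436 against 703). The shares are therefore not shares of transcripts.

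Levels in FPKM gave the order ANXA1, ANXA2, ANXA8, ANXA5, ANXA7, ANXA11, ANXA3, ANXA4 and ANXA9 in control libraries, with no overlap of neighbours over the 3 libraries. In knockdown libraries ANXA3 stood before ANXA11. Neighbours were again separate, narrowly so for ANXA3 and ANXA11, whose nearest values were 33.9 and 33.5 FPKM. The order rests on the gene length behind the FPKM. ANXA2 had 28231 to 30891 reads per library and ANXA1 14782 to 19557, yet ANXA1 had the higher FPKM, because the implied length of ANXA2 was 11574 bases and that of ANXA1 4453 bases. Exons of ANXA2 in GENCODE v29 cover 8824 bases, so its implied length was more than 10% above them. Those of ANXA1 cover 4561 bases, close to its implied length. A principal transcript of ANXA2 in GENCODE v29 is 1435 bases long, and one of ANXA1 is 1509 bases long. Per 1000000 reads and per kilobase of that transcript, ANXA2 was at 1436 ± 26.5 and ANXA1 at 703 ± 2.26 in control libraries (SD, n = 3), so on this scale ANXA2 was the higher. The change between groups within a gene is not touched by this choice.

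**Figure D3:**
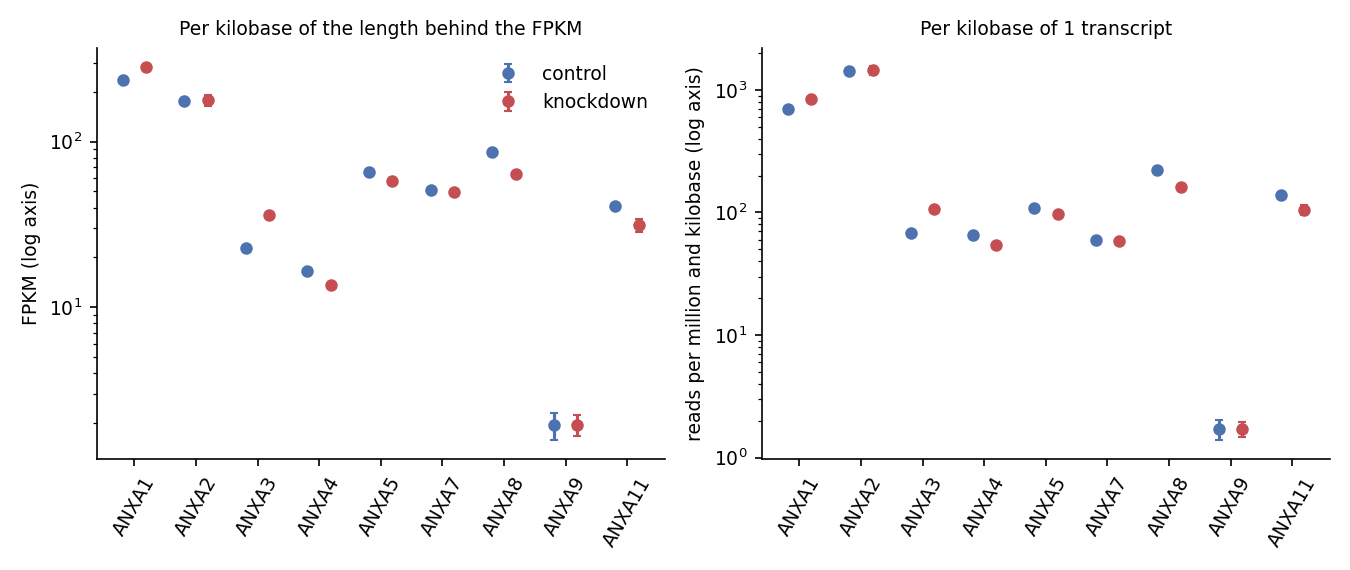
Levels of the 9 annexins as mean ± SD of 3 libraries on log axes, left as deposited FPKM and right as recovered reads per 1000000 reads and per kilobase of 1 principal transcript per gene; blue is control and red is knockdown. ANXA1 is the highest on the left, at 236 FPKM in control, and ANXA2 on the right, at 1436.

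Annexin partners were examined next, as a list of 8 genes for EF-hand proteins and other proteins that bind annexins. Of these, 1 was higher, 4 were lower and 3 did not pass (median log2 change -0.25, beside 0.01 over all genes). A share of 5 called of 8 is near the 57.4% called over all genes tested. S100A10, the partner of ANXA2, was at 529, 540 and 530 FPKM in control and 390, 332 and 396 FPKM in knockdown libraries. All knockdown libraries were below all control libraries (log2 change -0.52, SE 0.069, limma adjusted p = 1.54e-04). S100A11, the partner of ANXA1 and the highest of the list, was at 1334, 1295 and 1311 FPKM in control and 1146, 893 and 1109 FPKM in knockdown libraries (log2 change -0.33, adjusted p = 0.0102). S100A6, a ligand of ANXA11, fell from 281 ± 4.54 to 180 ± 14.5 FPKM (adjusted p = 1.89e-05). AHNAK, a giant scaffold held at the membrane by ANXA2 and S100A10, was at 42.4, 40.3 and 41.4 FPKM in control and 78.1, 93.8 and 73.7 FPKM in knockdown libraries and rose by 0.96 on the log2 scale (adjusted p = 7.42e-06).

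The partners differ widely in implied length, with 1012 bases for S100A10, 649 for S100A11, 971 for S100A6 and 19466 for AHNAK. With the length trend removed, 3 of these 4 kept their calls, at -0.28 for S100A10 (adjusted p = 1.23e-04), -0.40 for S100A6 (adjusted p = 7.61e-06) and 0.78 for AHNAK (adjusted p = 2.30e-06). S100A11 was at -0.06 and lost its call (adjusted p = 0.279). SRI, the fifth partner called and named after its values were seen, has an implied length of 4226 bases, and its log2 change was -0.31 as deposited and -0.28 with the trend removed (adjusted p = 0.00167 and 0.00213). S100A11 also lost its call under a common sum (adjusted p = 0.0519, against 7.86e-05 to 0.279 over all alternatives).

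Within libraries, S100A10 stood to ANXA2 as 3.02, 2.99 and 3.04 in control and as 2.08, 2.05 and 2.16 in knockdown libraries, as ratios of FPKM. The ratio was lower in each knockdown library than in any control library, replicate 2 included. S100A11 stood to ANXA1 as 5.65, 5.46 and 5.56 in control and as 4.03, 3.15 and 3.94 in knockdown libraries, again without overlap. ANXA1 stood to ANXA2 as 1.35, 1.31 and 1.35 in control and as 1.52, 1.75 and 1.53 in knockdown libraries. The level of each ratio rests on the gene lengths behind the FPKM, and its fold between groups does not. In control libraries S100A10 had 7542 to 8161 reads over an implied 1012 bases. ANXA2 had 28412 to 30891 reads over an implied 11574 bases, so a ratio above 1 does not show more S100A10 transcripts than ANXA2 transcripts. For each of these 3 ratios the exact two-sided permutation p was 0.1, the smallest this design allows, before and after Benjamini-Hochberg adjustment. Removing the length trend brought the fold of the S100A10 to ANXA2 ratio, computed from the log2 changes, from 0.695 to 0.904, that of S100A11 to ANXA1 from 0.664 to 0.789 and that of ANXA1 to ANXA2 from 1.19 to 1.33. The trend was removed by implied length, which for ANXA2 was 11574 bases against 1435 for its principal transcript. In the difference of knockdown replicate 2 from replicates 1 and 3, ANXA2 was at -0.19, against a median of 0.11 in its length class. Removal of the trend by transcript length was not tested, so the folds with ANXA2 after removal are uncertain.

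**Figure D4:**
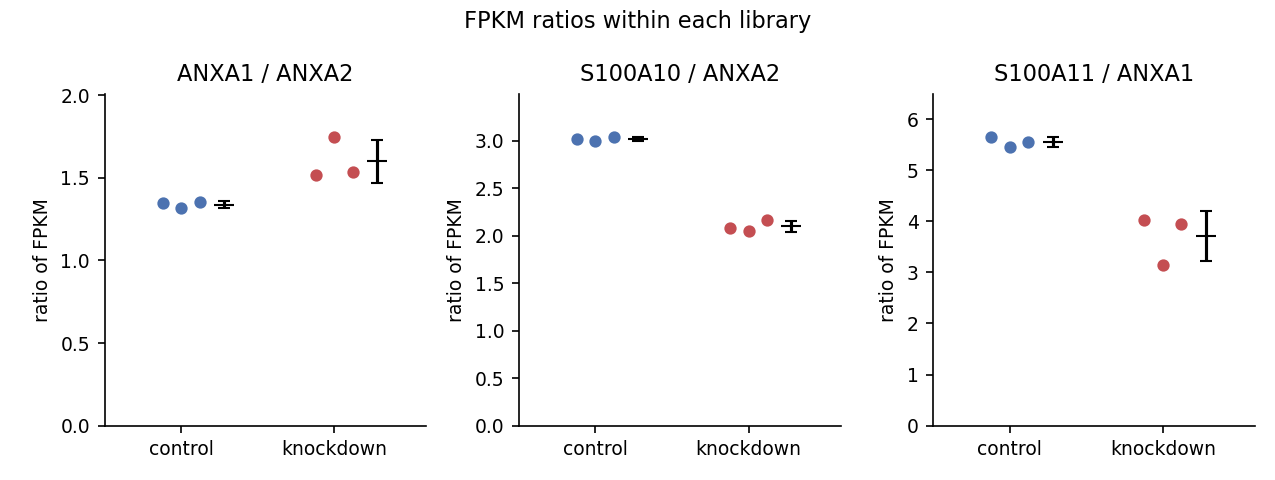
Ratios of FPKM within each library on linear axes from 0, for ANXA1 over ANXA2, S100A10 over ANXA2 and S100A11 over ANXA1; points are libraries in replicate order, and black marks are mean ± SD (n = 3). The knockdown libraries lie above the controls in the panel of ANXA1 over ANXA2 and below them in both S100 panels.

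Other genes of annexin biology went both ways. In a list of 16 membrane repair genes (ferlins, calpains and the ESCRT machinery that seals membranes) 4 were higher, 7 lower and 5 not called (median -0.14, beside 0.01 over all genes tested, of which 29.5% were higher and 27.8% lower). The ferlin MYOF rose from 102 ± 1.07 to 150 ± 9.88 FPKM (adjusted p = 1.95e-05), and the calpain CAPN2 fell from 51.7 ± 0.242 to 35.2 ± 1.53 FPKM (adjusted p = 9.82e-06). The ESCRT-III genes CHMP2A and CHMP1A fell from 46.6 ± 2.07 to 26.2 ± 3.48 FPKM (adjusted p = 3.22e-05) and from 19.8 ± 1.04 to 14.3 ± 0.825 FPKM (adjusted p = 1.71e-04). CHMP4B, the member with the highest level, fell from 169 ± 3.37 to 136 ± 12.8 FPKM (adjusted p = 0.00199). Named after their values were seen, CAPNS1 and TSG101 lost their calls under a common sum (adjusted p = 0.266 and 0.189), and PDCD6IP lost its call in 7 alternatives (adjusted p up to 0.522).

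Genes for the exposure and flipping of phospholipids, which set the surface that annexins bind, were all called among the 8 tested, 5 higher and 3 lower (median 0.20). Over all genes tested 57.4% were called, 29.5% higher and 27.8% lower, with a median of 0.01. PLSCR1, a scramblase-family gene that interferon induces, rose from 75.1 ± 2.81 to 98.6 ± 6.60 FPKM (adjusted p = 2.57e-04), and ANO6, a calcium-activated scramblase, from 9.62 ± 0.172 to 11.9 ± 1.24 FPKM (adjusted p = 0.00664). PLSCR4 fell from 1.304 ± 0.109 to 0.825 ± 0.0848 FPKM (adjusted p = 0.00426). XKR8, a scramblase activated by caspases, fell from 1.78 ± 0.298 to 1.24 ± 0.196 FPKM (adjusted p = 0.0218). The XKR8 call was lost without control replicate 2, control replicate 3 or knockdown replicate 3 and under a common sum (adjusted p 0.0505 to 0.0946). The calls of the flippase genes ATP11A and ATP8B1, named after their values were seen, were also lost in several alternatives (adjusted p up to 0.507 and 0.373), so the count of 8 called is not firm.

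In the list around ANXA1 and phospholipase A2, 6 of 10 genes were tested, 3 higher, 1 lower and 2 not called (median 0.21, beside 0.01 over all genes tested). The share of 4 called of 6 is near the background of 57.4%. The formyl peptide receptor genes FPR1, FPR2 and FPR3 and PLA2G4B were not in the table and are not analysed here. PLA2G4A, the cytosolic phospholipase A2 that ANXA1 restrains, was at 8.45, 9.49 and 10.1 FPKM in control and 2.78, 3.10 and 2.67 FPKM in knockdown libraries. Its highest knockdown library was well below its lowest control library (log2 change -1.42, SE 0.078, limma adjusted p = 6.41e-07). NR3C1, the glucocorticoid receptor, was at 9.27, 8.76 and 8.77 FPKM in control and 16.3, 18.3 and 16.7 FPKM in knockdown libraries (log2 change 0.87, SE 0.059, adjusted p = 2.41e-06). TSC22D3, a glucocorticoid-induced gene known as GILZ, rose from 16.9 ± 0.104 to 24.5 ± 1.07 FPKM (adjusted p = 2.07e-05). PTGS1, a cyclooxygenase that uses the product of phospholipase A2, rose from 6.48 ± 0.241 to 9.83 ± 1.41 FPKM (adjusted p = 5.72e-04). The calls of PLA2G4A, NR3C1, PTGS1 and TSC22D3 held in all 15 alternatives. In bulk libraries, fewer cells with a transcript and less of it per cell cannot be told apart.

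Outside the 10 listed annexins, ANXA10, an annexin known best from gastric epithelium, had a larger log2 change than any of the 9 members. It was at 40.7, 42.3 and 41.8 FPKM in control and 19.9, 18.4 and 17.9 FPKM in knockdown libraries (log2 change -1.11, SE 0.052, limma adjusted p = 2.12e-07), with no overlap of the groups. ANXA2R, named as a receptor for ANXA2 and not itself an annexin, was at 1.03, 1.01 and 0.859 FPKM in control and 0.792, 0.463 and 0.771 FPKM in knockdown libraries (log2 change -0.24, 95% interval -0.45 to -0.02, adjusted p = 0.0563). The groups did not overlap, but the gene passed only without knockdown replicate 1 (adjusted p = 0.0426).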

How the data were processed

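Per the labels' protocols, total RNA was extracted with TRIzol and libraries were made with an Illumina TruSeq RNA kit. The authors deposited FPKM values per gene and library. The submitters' processing notes name HISAT2 2.2.1 and GRCh38. Which program counted reads, on which annotation, gene lengths and strand setting, is not given in the sources used here.

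Whole reads were recovered for all 12829 genes, since within a gene each value is a whole multiple of a step that depends on library depth (tolerance 0.004 reads). Tested on simulated data, this returned the exact reads of 98.9% of 1000 genes. If the 6 counts of a gene share a divisor, they come out too low by that divisor. The step also gives the relative gene length, set to bases by the median ratio to exon lengths in GENCODE v29 (within 10% of it for 85.3% of genes).

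Knockdown and control were compared in R 4.3.3 by limma 3.58.1, fitted to log2(FPKM + 1) of the 11214 genes averaging 0.5 FPKM or more, with a mean-variance trend, two-sided tests and Benjamini-Hochberg adjustment (threshold 0.05). IQGAP2, below the filter, was added to the same fit. On simulated data for this comparison (11067 genes, 5% variation between replicates) the fit found 82% of 50 genes altered 1.3-fold and 96% of 50 altered 1.5-fold. It made calls in 0.11% of 10867 unaltered genes. The simulation held few altered genes, no trend over gene length and no outlying library. In the data 57.4% of genes were called, so these rates need not carry over to them. Identity was computed on global alignments of coding sequences without the stop codon, 1 principal transcript per gene.

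The members and lists were chosen with earlier results of these data known. The text names every member, 3 other annexin genes or relatives (ANXA10, ANXA8L1 and ANXA2R), IQGAP2 and, per list, the 4 called genes with the largest change and the one with the highest mean. The 3 ratios and the transcript-length scale were chosen after the data were seen.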

Additional observations from a re-analysis of the deposited data

How the results depend on the processing

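Counts of annexins called kept within 1.5 times the reported 2 higher and 4 lower in every alternative but one: with libraries rescaled to a common FPKM sum 4 were higher and 2 lower, ANXA7 turned from -0.03 to 0.13, and 1838 of all genes were called lower in place of 3121. The IQGAP2 log2 change of -0.22 depended on the pseudocount of 1 and was -0.41 with 0.5, -1.26 with 0.1 and -2.86 by voom on recovered reads. Leaving out single libraries gave -0.23 to -0.22. Its call was lost in 4 of those fits, at -0.22 without control replicate 1, -0.22 without control replicate 2, -0.23 without control replicate 3 and -0.22 without knockdown replicate 3, where fewer libraries are fitted. The replicate block changed no call of an annexin (2 higher and 4 lower). Replicate numbers did not pair libraries: deviations of same-numbered libraries correlated at -0.0667, -0.0382 and 0.0189, and with the block 3167 genes were higher and 3024 lower. Rescaling moved the split of all calls to 4864 higher and 1838 lower. Among related genes of the lists the block ended the calls of PDCD6IP and ATP11A and added PEF1. The ratio of control levels of ANXA1 to ANXA2, 1.34 in FPKM, was 0.490 per kilobase of transcript. Depth limited ANXA9 and IQGAP2, which had 51 reads or fewer per library. Arms left with 2 libraries were fitted with the spread pooled over both groups.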
